A study of Mus musculus with 6 samples.

Results

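Alternative RNA events of 161 ubiquitin pathway genes were examined in mouse brain, from a table that lists 7788 genes by symbol. Genes were taken by the start of their symbol: Ube for conjugating enzymes and some ligases, Ubr, Herc, Nedd, Rnf, Trim, Cul and Fbx for ligases and their subunits, Usp and Otu for deubiquitinating enzymes, and Psma to Psme for proteasome subunits. *Rnf11* and events inside the congenic interval of chromosome 19 were left out, and no symbol of the pattern lay inside that interval. Symbols of the MARCH ligases had turned into dates in the deposited table and are not counted here. The 161 genes held 279 events by name. Of the genes, 158 had an exclusion path with intensities, 272 such paths in all, of 12585 in the whole table. In addition, 9 events in 9 genes had no exclusion path and are described apart. The rule used symbols and positions and no measured value, but it was set with earlier results of these data known.

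Whole brain RNA came from 6 mice of a B6.CAST congenic stock. The RNA of each animal was hybridized to 1 Affymetrix MJAY array, which carries probe sets for the exons and junctions of each path of an alternative event. Of the animals, 3 were homozygous for the B6 allele of *Nxf1*, which encodes the main mRNA export factor, and 3 for the CAST allele. They formed 3 same-sex littermate pairs. There were 2 female pairs, 1 with both mice aged 46 days and 1 with both aged 23 days. The only male pair joined a B6 homozygote of 22 days with a CAST homozygote of 23 days. No drug or other treatment is given for any animal. The CAST homozygotes also carry CAST alleles of the genes next to *Nxf1* on chromosome 19, so that an effect of *Nxf1* and an effect of its neighbours cannot be told apart. The question was whether the choice between alternative RNA isoforms differs with the *Nxf1* allele.

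The table holds 1 pooled exclusion intensity and 1 pooled inclusion intensity for each of 2 sets, A and B. No value per array is given, so no spread between animals and no test of any event could be had, and precision is limited by the 3 arrays behind each set. Genotypes are not attached to the set names. The score of the table is defined as mutant over wild type, and the study's methods define the same score as CAST over B6. Set B was therefore taken as likely the *Nxf1* CAST animals, which holds only if set B is the numerator of that score. The sample titles call the B6 homozygotes genotype B, so the assignment stays uncertain. The isoform difference used here is the log2 exclusion to inclusion ratio in set B minus the same in set A. A value above 0 means relatively more of the exclusion path in set B. For cassette exons and retained introns this is the path that leaves the segment out. Alternative starts, alternative ends and mutually exclusive exons choose between 2 alternatives, and there the sign only follows which path the table labels exclusion. An event was called past the threshold when the size of this difference was over 0.5, a 1.41-fold change in the ratio. Where 2 intensities of a path are given, that of set A comes first and that of set B second. Positions are those of the table, which names no genome build. They give the span of the whole event, which for a cassette exon reaches well beyond the exon itself.

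Ubiquitin is a small protein that a cascade of enzymes attaches to other proteins. Activating enzymes charge it, conjugating enzymes carry it, and ligases choose the substrate, either by handing the ubiquitin over themselves, as HECT ligases do, or by bringing the loaded conjugating enzyme close, as RING and cullin ligases do. Chains of ubiquitin send proteins to the proteasome, deubiquitinating enzymes remove them, and in neurons the pathway controls synaptic receptors, axon growth and the clearance of misfolded proteins.

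Of the 272 exclusion paths in ubiquitin pathway genes, 18 in 17 genes were past 0.5, or 6.62%. Over all genes 909 of 12585 were past it, or 7.22%. The median size of the difference was 0.18 in these genes and 0.17 in all genes, and 18 paths of these genes lay between 0.4 and 0.5 in size. Of the 18, 14 lay above 0.5 and 4 below -0.5. In the table as a whole 4.51% of paths lay above and 2.72% below. After the median of all events was subtracted, 20 paths were past 0.5, or 7.35%, beside 7.04% of all paths, so that the order of the shares turned. Of the 20, 12 were above and 8 below, which makes 60.0% above, beside 50.7% of the calls over all genes. Differences ran from -1.05 in *Nedd4l* to 1.12 in *Ube4a*, and 86 paths differed by under 0.1. Of all the pathway paths 147 lay above 0, or 54.0%, beside 55.4% over all genes. Counted by gene, 10.8% of the pathway genes had an event past the threshold, and 11.4% of all genes did. On either count the shares differed by less than 1 percentage point.

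**Figure D1:**
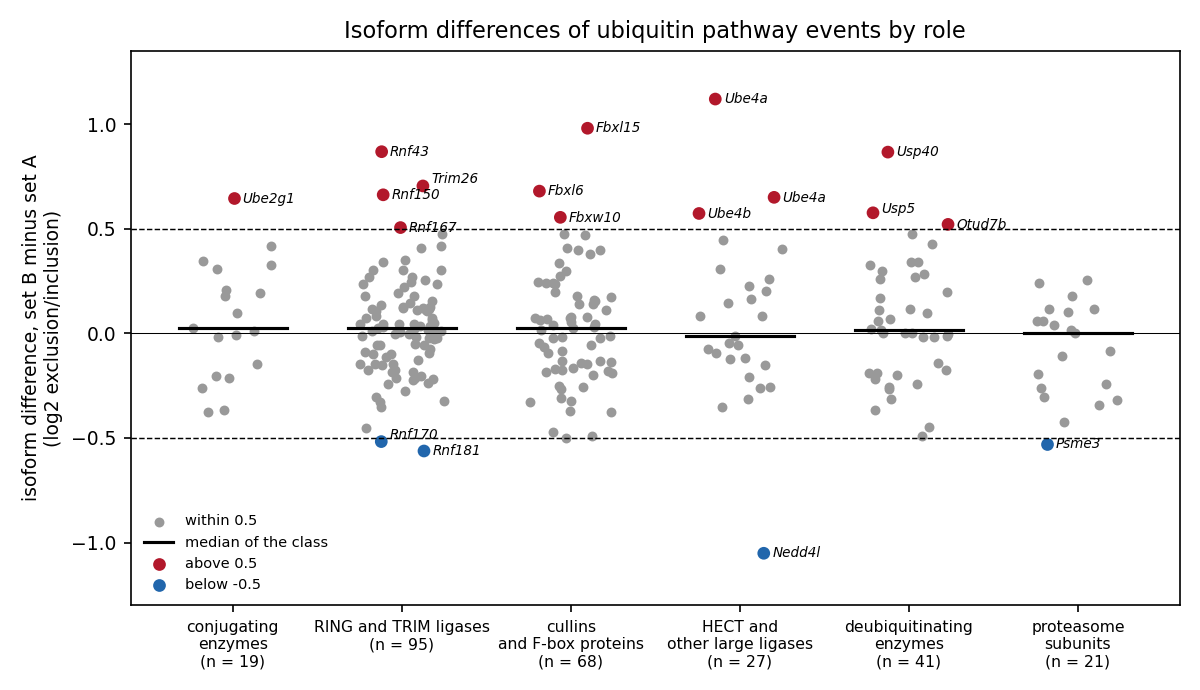
Isoform difference of each exclusion path (log2 exclusion over inclusion, set B minus set A, y axis) in 6 role classes (x axis), with the 18 paths past 0.5 coloured and named and a black bar at the median of each class. The class medians lie close to 0, and the extremes are *Ube4a* at 1.12 and *Nedd4l* at -1.05, both among the HECT and other large ligases.

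In 11 of the 18 paths the exclusion intensity was higher and the inclusion intensity lower in set B, in 3 both were higher, in 2 both were lower, and in 2 exclusion was lower and inclusion higher. The first of these patterns held for 51.2% of all paths past 0.5 in the table. It can only give a difference above 0, so its share follows the split by direction. Among paths above 0.5 it held for 11 of 14 in pathway genes, beside 465 of 567 in the table. Few single intensities moved far. The exclusion intensity was over 1.5-fold higher in set B in 4 of the 272 paths and as much lower in 4, beside 1.49% and 0.938% of all paths. The inclusion intensity was over 1.5-fold higher in 1 path, that of *Nedd4l*, beside 0.334% of all paths, and as much lower in 2, those of *Usp40* and *Ube2g1*, beside 0.381%.

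**Figure D2:**
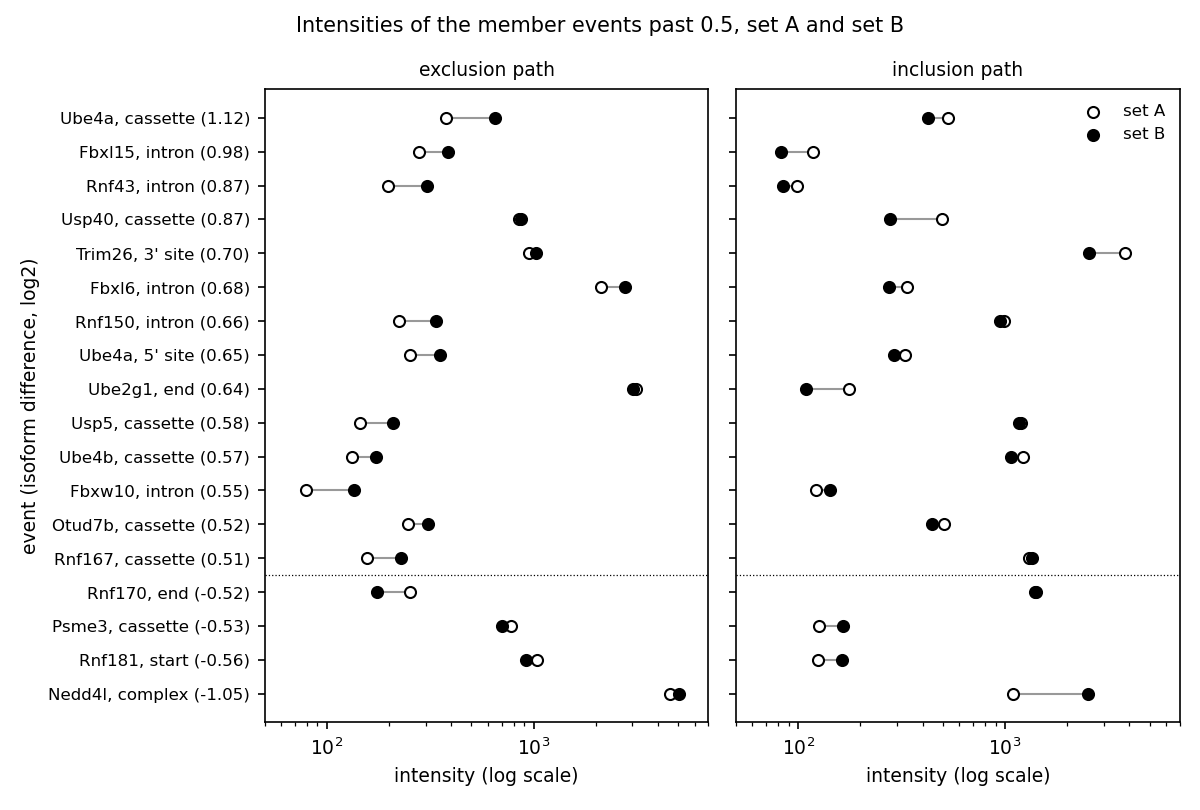
Pooled intensity on a log axis (x) of the exclusion path (left) and the inclusion path (right) in set A (open circles) and set B (filled circles) for the 18 events past 0.5, with the difference in brackets and a dotted line between those above 0.5 and those below -0.5. The widest gap is the inclusion path of *Nedd4l*, from 1096 in set A to 2509 in set B.

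Conjugating enzymes were represented by 12 genes with 19 exclusion paths, of which 1 was past 0.5, or 5.26%. The share over all genes, 7.22%, is the background for this and every other role class. The path was an alternative transcript end of *Ube2g1*, a conjugating enzyme that builds chains for proteasomal degradation, at chr11:72492974-72499662 on the plus strand. Exclusion read 3132 in set A against 3032 in set B, and inclusion 176 against 109. The difference was 0.64, with the exclusion path 0.968 times and the inclusion path 0.619 times as bright in set B as in set A. The cassette exons of the same gene gave smaller values of 0.31 and 0.19, on the same side of 0.

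*Ube2n*, which builds chains that serve signalling and DNA repair together with *Ube2v1*, had a cassette exon at 57 and 70 on the exclusion path and at 2969 and 2728 on the inclusion path, a difference of 0.42. An alternative 5' splice site of *Ube2n* differed by 0.01, although both of its paths were dimmer in set B, from 75 to 51 and from 653 to 440. The summed intensity of that event differed by -0.57 on the log2 scale. Its partner *Ube2v1* differed by -0.20 and *Ube2k* by 0.02. None of these reached 0.5. The remaining conjugating enzymes ran from -0.38, in a cassette exon of *Ube2d3*, to 0.35, in a retained intron of *Ube2l3*.

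RING and TRIM ligases formed the largest class, with 56 genes and 95 paths. Of the 95, 6 were past 0.5, or 6.32%, 4 of them above, and the median size of 0.13 was the lowest of the 6 classes. The highest value was an intron of *Rnf43*, a membrane ligase that removes Wnt receptors from the cell surface, at chr11:87476724-87477637 on the plus strand. The path that removes the 911-nt intron went from 197 to 305 and the path that keeps it from 99 to 84, a difference of 0.87. Both values of the path that keeps the intron were under 100. An alternative start of the same gene differed by 0.11.

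*Trim26*, a TRIM ligase encoded in the major histocompatibility complex region, had an alternative 3' splice site at chr17:36974209-36974441 on the plus strand that adds or leaves out 31 nt. Inclusion read 3808 in set A against 2540 in set B and exclusion 947 against 1029, a difference of 0.70. All 4 values were bright, and 3.84% of the 963 paths in the table whose dimmest value lay from 500 up to 1000 were past 0.5. The summed intensity was lower in set B by 0.41 on the log2 scale. An alternative end of *Trim26* differed by 0.04.

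*Rnf150*, a ligase with a membrane-spanning segment, gave a 223-nt intron at chr8:85387791-85388016 on the plus strand with a difference of 0.66. Exclusion went from 223 to 336, while inclusion read 988 and 941. *Rnf167*, a membrane ligase of endosomes and lysosomes, lay just inside the threshold at 0.51. Its 81-nt cassette exon at chr11:70461434-70462743 on the plus strand was left out at 156 in set A against 229 in set B and kept at 1311 and 1356. Its other events, a 185-nt cassette exon with an overlapping event span and an alternative 5' splice site, differed by -0.02 and -0.24.

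The RING ligases below -0.5 were *Rnf170* and *Rnf181*. *Rnf170*, a ligase of the endoplasmic reticulum that degrades activated inositol trisphosphate receptors, had an alternative end at chr8:27239637-27253045 on the plus strand. Its exclusion path went from 253 to 174 and its inclusion path from 1417 to 1395, a difference of -0.52. *Rnf181* had the only alternative start of a pathway gene past 0.5, at chr6:72311533-72316952 on the minus strand. Exclusion read 1043 in set A against 921 in set B and inclusion 125 against 163, a difference of -0.56. A cassette exon of *Rnf181* differed by 0.04.

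RefSeq lists 2 starts for *Rnf181* in GRCm38.p6, 4540 bases apart on the minus strand of chromosome 6, and the 250 bases before each are given because the event chooses between starts. The table's positions do not follow this build, so neither start could be assigned to a path. CG pairs, which read the same on both strands, are in capitals.
*Rnf181* start 1, chr6:72362433-72362682: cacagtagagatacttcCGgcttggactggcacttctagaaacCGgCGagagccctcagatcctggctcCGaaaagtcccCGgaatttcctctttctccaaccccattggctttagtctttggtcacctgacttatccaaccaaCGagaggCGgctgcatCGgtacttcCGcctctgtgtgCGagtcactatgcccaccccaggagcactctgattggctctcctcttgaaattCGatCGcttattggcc
*Rnf181* start 2, chr6:72366973-72367222: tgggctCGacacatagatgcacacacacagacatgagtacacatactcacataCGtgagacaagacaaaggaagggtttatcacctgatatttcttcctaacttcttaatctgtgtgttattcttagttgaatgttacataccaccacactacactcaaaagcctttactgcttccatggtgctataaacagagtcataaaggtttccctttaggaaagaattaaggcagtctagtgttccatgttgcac
The first stretch holds 12 CG pairs and is 54% G and C, and the second holds 2 and is 40% G and C. Over 32851 RefSeq promoter stretches of this length the median was 6 CG pairs and 52.4% G and C, 33.5% had at least 12 and 81.2% at least 2.

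The ligases with most events mostly gave small values on both sides of 0. *Rnf214* had 5 events from -0.35 to 0.18, *Rnf14*, a coactivator of the androgen receptor, 4 from -0.19 to 0.47, *Rnf220* 3 from -0.33 to 0.06, and *Rnf111*, which acts in TGF-beta signalling, 3 from -0.20 to 0.02. *Rnf13*, a ligase of endosomal membranes, had 3 events from -0.05 to 0.12, and *Trim7* 3 from -0.08 to 0.30. *Rnf123*, which targets a cell cycle inhibitor, and *Rnf207* were the RING ligases whose events all lay above 0. The 4 events of *Rnf123* ran from 0.01 to 0.42, and 3 of them overlap in position, so that they are not independent readings. The 3 events of *Rnf207* ran from 0.08 to 0.23.

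The TRIM ligases best known from neurons stayed within the threshold. *Trim9*, which guides axon branching, had a complex event at 0.35, an alternative end at 0.34 and an alternative 5' splice site at -0.22. *Trim2*, which degrades neurofilament light chain, had 2 alternative ends at 0.13 and 0.11. *Trim3*, a ligase of the postsynaptic density, had an alternative 5' splice site at 752 and 846 on the exclusion path and 440 and 495 on the inclusion path, a difference of 0.00 with a summed intensity higher by 0.17 on the log2 scale.

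Cullins and F-box proteins, the scaffold and the substrate receptors of the multi-subunit ligases, gave 39 genes and 68 paths, with 3 past 0.5, or 4.41%. After the median of all events was subtracted 6 of the 68 paths were past it, beside 7.04% of all paths. The 3 without that step were all retained introns above 0.5 and all were in F-box genes. *Fbxl15*, a receptor that acts in bone morphogenetic protein signalling, had the largest, at chr19:46402791-46402892 on the plus strand and outside the congenic interval. Removal of its 99-nt intron read 279 in set A against 387 in set B, and retention 118 and 83, a difference of 0.98. In *Fbxl6* a 247-nt intron at chr15:76368505-76368754 on the minus strand read 2115 and 2762 for removal and 336 and 274 for retention, a difference of 0.68. Other introns of *Fbxl6*, of 89 and 128 nt, differed by 0.18 and -0.25, so the introns of this gene did not share a direction. *Fbxw10* had a 92-nt intron at chr11:62634139-62634233 on the plus strand with removal at 79 and 135 and retention at 122 and 142, a difference of 0.55. The other 3 events of *Fbxw10* ran from -0.37 to 0.47, and the lowest value of its intron event was under 100.

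*Fbxw5*, the receptor just outside the threshold, had a complex event at -0.499. Exclusion read 144 in set A against 146 in set B, and inclusion 651 against 933. *Fbxl12* had a retained intron at -0.49, the lowest among the introns of pathway genes, with exclusion at 85 and 54. *Fbxw7*, which degrades cyclin E and Notch, had an alternative start at -0.20. The cullin scaffolds *Cul5* and *Cul2* gave 5 paths from -0.33 to 0.47, none past 0.5. *Fbxw2* gave 4 paths from -0.26 to 0.33 and *Fbxo44* 3 from -0.19 to 0.08.

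HECT and other large ligases had 11 genes and 27 paths, and 4 paths were past 0.5, or 14.8%, beside 7.22% over all genes, 3 above and 1 below. Of the 4, 2 were overlapping events of *Ube4a*, the gene of the pathway with most events. Without *Ube4a* the class had 2 of 19 paths past 0.5, or 10.5%, and the whole pathway 16 of 264, or 6.06%. *Ube4a* encodes a U-box ligase that lengthens ubiquitin chains. Its 69-nt cassette exon at chr9:44768202-44773588 on the minus strand was left out at 375 in set A against 652 in set B and kept at 531 and 425. The difference of 1.12 was the largest among the pathway genes and the 16th in size of 12585. The exclusion intensity was 1.74-fold higher in set B, the 25th largest increase of an exclusion intensity in the table. An alternative 5' splice site of 26 nt at chr9:44768222-44771446, inside the span of the cassette event, read 252 and 353 for exclusion and 327 and 292 for inclusion, a difference of 0.65. The 2 events overlap in position and are not independent readings.

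The other 6 events of *Ube4a* were within the threshold. A complex event that follows the first 2 along the gene differed by 0.41. A cassette exon whose event spans nearly the same positions as the complex event differed by -0.05. The 4 events further along the gene lay between -0.21 and -0.07. Both events past 0.5 lay in the first 5.39 kb of the region that the 8 events cover.

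**Figure D3:**
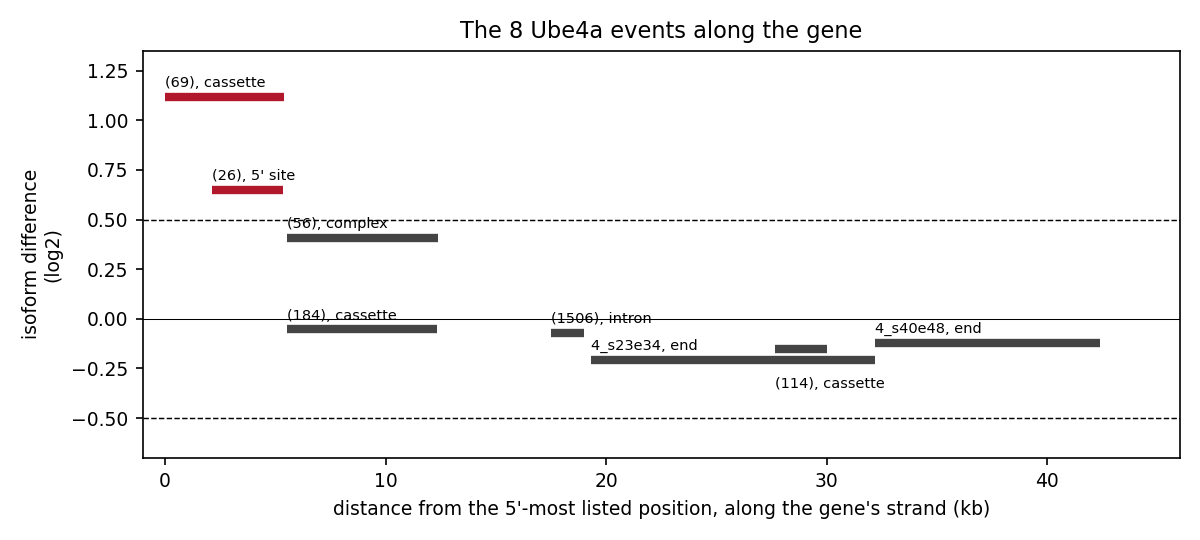
The 8 exclusion paths of *Ube4a*, each a bar over the span of its event (distance along the strand of the gene in kb, x axis) at its isoform difference (log2, y axis), with dashed lines at 0.5 and -0.5. Red bars are the events at 1.12 and 0.65, both within the first 5.39 kb, and the 5 events below 0 lie between -0.21 and -0.05.

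*Ube4b*, the related U-box ligase, had a 187-nt cassette exon at chr4:148761305-148800011 on the minus strand with exclusion at 132 and 172 and inclusion at 1220 and 1069, a difference of 0.57. Its 906-nt intron differed by -0.05. *Nedd4l*, a HECT ligase that removes sodium channels from membranes, gave the lowest value of all pathway genes and the 21st in size of the table. The complex event lies at chr18:65325280-65331949 on the plus strand. Exclusion read 4582 in set A against 5062 in set B and inclusion 1096 against 2509, a difference of -1.05. That 2.29-fold change was the 3rd highest increase of an inclusion intensity among 12585 paths. Of the 343 paths whose dimmest intensity was 1000 or more, 7 were past 0.5, or 2.04%, and this path had the lowest difference of them.

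A second exclusion path listed under the same *Nedd4l* event name, with its own positions, read 201 and 175 for exclusion and 5236 and 5460 for inclusion, a difference of -0.26. The summed intensity of the first path was higher in set B by 0.42 on the log2 scale and that of the second by 0.05, so the paths of this gene did not shift alike. *Nedd4*, its relative, had an alternative end at 0.17.

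*Ube3a*, the ligase lost in Angelman syndrome, had a twin cassette at 0.20 and an alternative end at -0.01. *Herc2*, which binds *Ube3a*, gave a cassette exon at -0.26 and an alternative start at -0.35. The 3 events of *Herc3* ran from 0.08 to 0.45, all above 0. None was past 0.5.

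The class of deubiquitinating enzymes, taken by the symbols Usp and Otu, gave 24 genes and 41 paths. Of these, 3 were past 0.5, or 7.32%, all cassette exons above it. The counts include 5 paths of *Usp52* and 1 of *Usp6nl*, which encode no deubiquitinating enzymes and had no path past 0.5. Among the 3, *Usp40* was the largest. Its 58-nt exon at chr1:89864153-89872403 on the minus strand was left out at 850 in set A against 873 in set B and kept at 495 and 279, a difference of 0.87. The decrease of the inclusion intensity to 0.564 of its set A value was the 8th in size among all inclusion changes. *Usp5*, which takes apart unanchored ubiquitin chains, had an 85-nt exon at chr6:124765657-124767356 on the minus strand with exclusion at 144 and 208 and inclusion at 1201 and 1164, a difference of 0.58. Its alternative 5' splice site differed by 0.33. *Otud7b* had a 58-nt exon at chr3:95908742-95940396 on the plus strand with exclusion at 246 and 309 and inclusion at 507 and 444, a difference of 0.52. A 113-nt exon of the same gene, whose event span ends at the same position, differed by 0.12.

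Several well known deubiquitinating enzymes came close to the threshold on either side. *Usp9x*, an X-linked enzyme needed in brain development, had an alternative 5' splice site at 5251 and 6181 for exclusion and 289 and 245 for inclusion, a difference of 0.47. *Usp7*, which stabilises *Mdm2* and other nuclear proteins, had a cassette exon at 940 and 691 for exclusion and 297 and 307 for inclusion, a difference of -0.49, and an alternative 3' splice site at 0.11. *Usp14*, an enzyme bound to the proteasome, had a cassette exon at -0.31, and *Usp33* one at -0.24. The 4 events of *Usp49* ran from -0.27 to 0.34. *Usp11* was the only pathway gene with 3 or more events that all lay below 0, from -0.26 to -0.01. The 5 events of *Usp52*, a symbol now replaced by *Pan2* for an enzyme that shortens poly(A) tails and is no deubiquitinating enzyme, ran from -0.19 to 0.28. The rule also takes *Nedd9*, an adhesion scaffold outside the pathway, whose alternative start stood at -0.24.

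Proteasome subunits had 15 genes and 21 paths, and 1 path was past 0.5, or 4.76%. It was a 75-nt cassette exon of *Psme3*, a subunit of a proteasome activator of the nucleus, at chr11:101177802-101178494 on the plus strand. Exclusion read 781 in set A against 704 in set B and inclusion 126 and 164, a difference of -0.53. Of the other activator subunits, *Psme4* had alternative starts at -0.11 and -0.24 and *Psme2* one at 0.12. The 10 paths of the Psma and Psmb subunits, which form the barrel that cuts proteins, ran from -0.34 to 0.26, and the alternative 5' splice site of the catalytic subunit *Psmb5* stood at 0.04. The 7 paths of the Psmc and Psmd genes, most of which encode the cap that unfolds substrates, ran from -0.42 to 0.24. The highest was that of *Psmd10*, which encodes an assembly factor of the cap. None of the core and cap paths was past 0.5. *Psma4* and *Psmb2* each have a row on another chromosome than RefSeq gives for the gene, and these rows stood at 0.06 and -0.08.

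By kind of event, 7 of 81 cassette exons in pathway genes were past 0.5, or 8.64%, beside 8.53% of all cassette exons. For retained introns the count was 5 of 27, or 18.5%, beside 9.86%, and all 5 were above 0.5, beside 6.48% of all introns. The genes were *Fbxl15*, *Rnf43*, *Fbxl6*, *Rnf150* and *Fbxw10*, and in each of them the spliced path was brighter in set B. Of the other 22 introns, 10 lay above 0 and 12 below. Of the 5 introns, 3 had an intensity under 100 in at least 1 set, beside 35 of the 105 introns past 0.5 in the whole table. Alternative starts gave 1 of 50, or 2.00%, beside 6.32% of all starts, and alternative ends 2 of 45, or 4.44%, beside 2.78%. Alternative 5' and 3' splice sites gave 1 of 28 and 1 of 13, beside 10.7% and 9.07%, and complex events 1 of 23, beside 8.35%. The 4 twin cassettes and the single pair of mutually exclusive exons stayed within 0.5, beside 10.5% and 1.67% past it in the table. Each of these counts rests on few events, and no test stands behind any of them. Of the 7 cassette exons past the threshold, 3 had a length that is a multiple of 3, those of *Ube4a*, *Rnf167* and *Psme3*. Of all 81 in these genes 37 did, and 53.2% of cassette exons in the table.

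**Figure D4:**
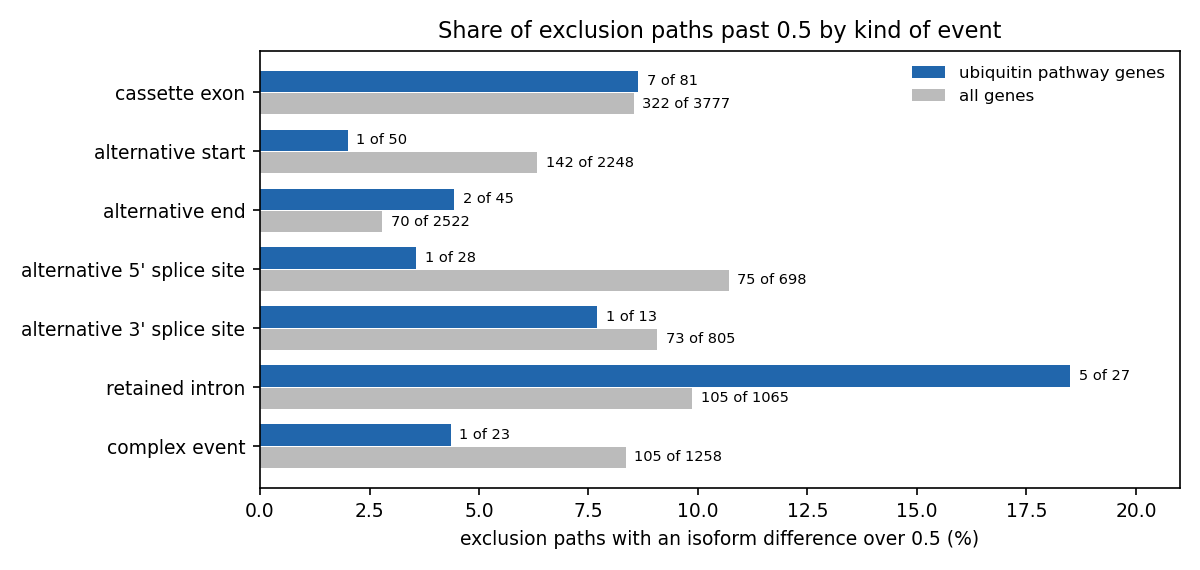
Share of exclusion paths with an isoform difference over 0.5 in size (percent, x axis from 0) for each kind of event drawn (y axis) in ubiquitin pathway genes (blue) and in all genes (grey), with counts beside the bars. Retained introns have the highest bar in pathway genes at 18.5%, from 5 of 27, and alternative starts stand at 2.00% from 1 of 50. Twin cassettes and mutually exclusive exons are not drawn for either group.

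Differences past 0.5 were more frequent among dim paths in the table as a whole. Of the paths whose dimmest value was under 100, 10.3% were past 0.5, and 6.87% of those from 100 up to 500. In the pathway genes 48 of 272 paths had a value under 100, beside 21% of all paths, and 3 of these were past 0.5, in *Fbxl15*, *Rnf43* and *Fbxw10*. When 50 was added to every intensity, which damps the ratios of dim values, 9 of the 18 stayed past 0.5.

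**Figure D5:**
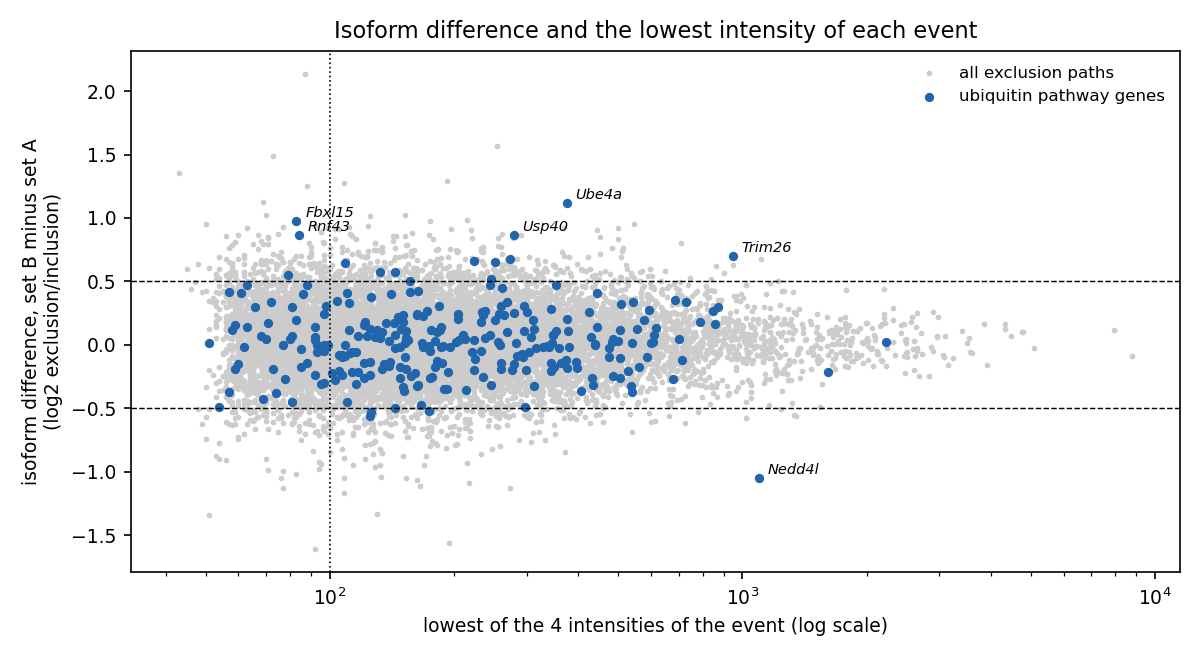
Isoform difference (log2, y axis) against the lowest of the 4 intensities of an event (log axis, x) for all 12585 exclusion paths (grey) and the 272 of ubiquitin pathway genes (blue), with dashed lines at 0.5 and -0.5 and a dotted line at 100. *Nedd4l* at 1096 and *Trim26* at 947 stand apart on the bright side, whereas *Fbxl15* and *Rnf43* lie left of 100.

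Of the 78 pathway genes with several paths, 40 had values on both sides of 0, beside 60.2% of such genes in the table. In 22 all paths lay above 0 and in 16 all below, beside 24.1% and 15.6%. Of the 22 genes with 3 or more, 17 had values on both sides, beside 81.9%. The exceptions were *Ube2g1*, *Rnf123*, *Rnf207* and *Herc3*, 4 genes with all paths above 0, beside 11.4%, and *Usp11*, 1 gene with all below, beside 6.77%. Paths of 1 gene often share exons and probes, and they are not replicates of a condition. The 9 events without an exclusion path held 28 paths, each set against a shared inclusion value, and their sign does not stand for exclusion. Of these, 3 differed by over 0.5, in *Rnf44* (0.65), *Trim46* (0.62) and *Nedd4l* (0.52), beside 3.66% of 1229 such paths. The path of *Rnf44* went from 136 to 184 and that of *Trim46* from 132 to 177, while their shared inclusion values were lower in set B, at 1552 and 1341 and at 920 and 805.

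The level of a gene was taken as the log2 of its summed exclusion and inclusion intensities, set B minus set A, averaged over its paths. The level of no pathway gene differed by over 0.5. Over all genes, 28 lay above 0.5 and 19 below -0.5, together 0.616%. The median over 158 pathway genes was -0.0044, beside 0.0056 over all genes. In a bulk sample, fewer cells of a type and less RNA per cell cannot be told apart. The lowest level change was that of *Usp15* at -0.45, an enzyme read by a single complex event at 247 and 151 for exclusion and 558 and 440 for inclusion. *Ube2n* followed at -0.34, *Usp47* at -0.34 and *Ube2j1*, a conjugating enzyme of the endoplasmic reticulum, at -0.32. The highest were *Fbxo27* at 0.37, *Rnf215* at 0.33 and *Fbxw5* at 0.32. Conjugating enzymes had a median of -0.13, with 9 of 12 genes below 0, and HECT and other large ligases a median of -0.05, with 8 of 11 below 0. The 15 proteasome genes had a median of 0.0056, with 9 above 0. The 17 genes with an event past the isoform threshold had level changes from -0.22 to 0.24, with 8 above 0 and 9 below.

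Genes of the pathway that the symbol rule does not take were read from a separate list of 102 activating enzymes, ubiquitin genes, other ligases and their subunits, signalosome and segregase subunits, deubiquitinating enzymes of other families and relatives. Of these, 60 were measured, with 105 exclusion paths. This list was not filtered by position, and its 1 event inside the congenic interval, a complex event of *Ddb1*, differed by -0.04. In this list 4 paths in 4 genes were past 0.5, or 3.81%, beside 7.22% of the table, and without *Ddb1* 4 of 104, or 3.85%. All were below -0.5 and none above, beside 2.72% of all paths below and 4.51% above. The symbol-chosen genes had 14 above and 4 below. After the median of all events was subtracted they had 12 above and 8 below, and the separate list had 5 genes with a call. *Mdm4*, a partner of *Mdm2* that restrains the tumour suppressor *Trp53*, had a 78-nt cassette exon at chr1:134915461-134921824 with exclusion at 365 and 213 and inclusion at 129 and 147, a difference of -0.97. Other events of *Mdm4* ran from -0.06 to 0.23. *Trip12*, a HECT ligase, had a complex event at -0.80 with exclusion at 1894 and 1613 and inclusion at 175 and 259, and an alternative 3' splice site of the same gene stood at 0.40. *Wwp1*, a HECT ligase related to *Nedd4*, had a 43-nt cassette exon at -0.57 with exclusion at 1283 and 912. *Senp2*, a SUMO protease, had an alternative 5' splice site at -0.57 with exclusion at 82 and 50. The activating enzyme *Uba1* had an alternative start at -0.30, with exclusion at 825 and 866 and inclusion at 518 and 671. The 5 events of the giant ligase *Huwe1* ran from -0.32 to 0.19.

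Marker genes of brain cell types were read from the summed intensities. For neurons 7 of 9 listed markers were measured, with summed intensities from 2120.5 to 20035 in set A and from 2102 to 19107 in set B, a median change of -0.07 and a range from -0.17 to 0.09. For astrocytes 5 of 6 ran from 671 to 8335 and from 602 to 8170.5, median -0.04, and for oligodendrocytes 4 of 6 ran from 2177 to 8367 and from 2106 to 7909, median -0.03. For microglia 3 of 5 ran from 679 to 908.5 and from 704 to 1030, and all 3 were higher in set B, by 0.06 to 0.21. Also measured were *Dcx* of immature neurons at 843.5 and 724.5, *Pecam1* of endothelium at 448.4 and 431.8, and *Alas2* of blood at 294 and 332. None of the 3 liver markers was measured, so these values do not test the tissue label. The part of cell composition in the values above was not tested.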

How the data were processed

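Whole brain RNA of 3 *Nxf1* B6 and 3 *Nxf1* CAST homozygotes was hybridized to Affymetrix MJAY arrays, and per the labels' processing notes Affymetrix Power Tools was used. The authors deposited 1 table with exclusion and inclusion intensities on a linear scale as whole numbers, summarized over the arrays of a set. Background correction, normalization and genome build are not given in the sources used here. The table also holds log2 separation scores and q-values of the authors' own paired and standard comparisons, which were not used.

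From the intensities of each exclusion path, the log2 exclusion to inclusion ratio in set B minus that in set A was computed with Python 3.11.15, numpy 2.4.6 and pandas 2.3.3, with no pseudocount and no filter, and plotted with matplotlib 3.10.9. Inclusion rows were not counted again, since 12558 of 12585 mirror an exclusion row. The size of 0.5 is that of the study's methods, which also required a q-value. That requirement was dropped here, so a path past 0.5 is not a call by the study's criteria. One value per set allows no test. The calculation was run on simulated intensities with known shifts and no noise between arrays, which checks the formula and not the calls. All 161 symbols matched RefSeq in GRCm38.p6, 5 of them as synonyms. Positions and promoter stretches were not joined, since 19 of 272 events lie in the GRCm38.p6 span of their gene.

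Members, gene lists, roles and alternatives were chosen with earlier results of these data known. Named are all paths past 0.5, the largest of each role class, genes with 3 or more paths, the paths on either side of the threshold, and a list of well known pathway genes. Of these, Ube2a, Usp46, Nedd8, Fbxo2, Fbxl17, Cul3, Cul4a, Herc1, Ubr4, Psmd4 and Psma3 had no exclusion path here. A few other genes of that list are not reported here. Any other gene was picked for mention with its values in view. Alternatives were other thresholds, an intensity minimum of 100, 50 added to intensities, other ways to join paths, subtraction of the median and other gene sets.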

Additional observations from a re-analysis of the deposited data

How the results depend on the processing

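No paired analysis was possible because the table gives 1 pooled value per set and no value per array or pair, and for the same reason no replicate could be left out in turn. The share of ubiquitin pathway paths past the threshold, 6.62% at 0.5, was 0.735% (2 paths, in *Ube4a* and *Nedd4l*) at a threshold of 1, 3.68% (10 paths) at 1.5-fold and 3.31% (9 paths) with 50 added to every intensity, beside 0.223%, 3.75% and 3.12% of all paths. Counted by gene it was 10.8%, beside 11.4% of all genes. The remaining alternatives gave between 6.06% and 8.47%, beside 6.41% to 8.92% of all paths. They were an intensity minimum of 100, a mean or an extreme over the paths of an event, and starts and ends left out. Subtraction of the median and other symbols added or removed were also among them. The median size of 0.18 was 0.14 with 50 added and 0.24 by gene, beside 0.14 over all paths and 0.23 over all genes. The percentage of calls above 0 was 77.8%, beside 62.4% over all genes. It was 50% at a threshold of 1, beside 42.9%, and 60.0% after the median was subtracted, beside 50.7%. Otherwise it lay between 73.3% and 90%, beside 61.0% to 64.3%. The number of role classes with a call, 6, was 1 at a threshold of 1, 5 at 1.5-fold and 4 with 50 added, and 6 under the other alternatives run for it. Of the 60 genes of the separate list, 4 with a call became 0 at a threshold of 1 and 2 at 1.5-fold. Of the 18 paths past 0.5, 9 stayed past it with 50 added and 16 with the median subtracted, the alternatives computed path by path. The median subtracted was 0.0335, too small to change the sign of any of them. Adding the MARCH genes and leaving out *Ube4a*, events inside the congenic interval, misplaced rows, or *Usp6nl* and *Usp52* were chosen after seeing the data.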

Other observations

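The MARCH ligases, membrane-bound RING enzymes that remove receptors from the cell surface, could be read by event name. There were 6 such genes with 12 exclusion paths. Of these, 2 were past 0.5, both in *March1*, a ligase best known for removing antigen-presenting molecules from immune cells. A cassette exon of *March1* read 143 in set A against 97 in set B for exclusion and 241 against 262 for inclusion, a difference of -0.68. An alternative start of the gene had exclusion at 112 and 77 and inclusion at 95 and 100, a difference of -0.61, and another alternative start stood at 0.00. *March5*, a ligase of the mitochondrial outer membrane, gave 3 paths from -0.21 to 0.41. With these genes added, 20 of 284 paths were past 0.5, or 7.04%, beside 7.22% in the whole table.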
